A study of Homo sapiens with 4 samples.

Results

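The 32 genes described here are direct transcriptional targets of the tumour suppressor p53, out of 25027 gene symbols or unmatched identifiers in the deposited expression tables. They were chosen by name, with no expression value in the rule, but with earlier results of these data known. By known role they were sorted into 9 genes of cell cycle arrest and p53 feedback, 11 of death and survival, 4 of DNA repair, and 8 of metabolism, redox balance or secretion. RNA was sequenced from RPE1, a diploid epithelial line from human retina made immortal by telomerase (hTERT). Each culture received 10 nM of a Stealth siRNA with Lipofectamine RNAi MAX, either the manufacturer's negative control or 1 siRNA against SAF-A (scaffold attachment factor A), the product of HNRNPU, a nuclear RNA-binding protein of the HNRNP family, and was collected at 24 h or 48 h. There was 1 library for each of the 4 combinations, so no spread between samples can be measured and no test was run on any comparison. No untransfected culture was analysed here, and all groups share the cell line and the transfection reagent.

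p53 is a transcription factor held low in unstressed cells by MDM2, a ubiquitin ligase that p53 itself induces. When DNA damage, ribosomal stress or oncogene activity frees it, p53 binds paired copies of a short consensus near its target genes and raises their transcription. Its targets halt the cell cycle through CDKN1A, sensitise cells to death through membrane receptors and mitochondrial BCL2-family proteins, supply repair enzymes and adjust metabolism. Many of them also answer to other stress pathways, and p53 lowers mitotic genes indirectly, through p21 and the DREAM repressor complex.

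The p53 consensus was looked for around each gene because it is the sequence that p53 recognises. The expression values entered this scan only through the choice of transcript and of tested genes. A full site is 20 bases, made of 2 adjacent copies of the p53 half-site consensus, in each of which the C and G of the core were required and other positions could mismatch. The consensus reads the same on both strands, which were scanned over 2500 bases on each side of the start of the most abundant RefSeq transcript (GRCh37, the build called hg19 in the submitters' processing notes). Of the 32 member windows, 17 (53.1%) held a match with up to 2 mismatches, against 3.59% of 11058 tested genes and 3.12% of the 32 windows of a list of mitotic and replication genes repressed through p21 and DREAM. With up to 1 mismatch the shares were 18.8% of members and 0.534% of tested genes. A perfect match stood in the windows of PLK2 and ZMAT3, 6.25% of members, against 0.0543% of tested genes. The members were listed because they are known direct p53 targets, so their higher shares are not independent of that choice. A match is a description of letters and not evidence of binding. The best matches of 10 members from the arrest, death and repair classes are printed below, 5′ to 3′ on the strand of the gene, with the 4 core bases of each half-site in capitals.
CDKN1A: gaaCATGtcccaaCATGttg
GADD45A: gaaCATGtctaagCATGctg
CCNG1: gcaCAAGcccaggCTAGtcc
MDM2: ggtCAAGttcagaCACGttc
FAS: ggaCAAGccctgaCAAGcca
BAX: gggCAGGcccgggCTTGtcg
BBC3: ctgCAAGtcctgaCTTGtcc
DDB2: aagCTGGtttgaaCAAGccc
PLK2: aaaCATGcctggaCTTGccc
ZMAT3: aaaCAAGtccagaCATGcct

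The CDKN1A match (chr6:36644226-36644245) overlaps the start of the transcript NM_001220777 and has 2 mismatches. The MDM2 match (chr12:69202703-69202722), the FAS match (chr10:90751066-90751085) and the BAX match (chr19:49458470-49458489) each lie in intron 1, with 2 mismatches. The BBC3 match (chr19:47734577-47734596) lies in intron 1 of this gene of the minus strand and has 3 mismatches, so it stands outside the counts above. The GADD45A match (chr1:68152458-68152477, intron 3), the CCNG1 match (chr5:162864932-162864951, intron 2) and the DDB2 match (chr11:47236520-47236539, exon 1) have 1 mismatch each. The 2 perfect matches belong to genes of the minus strand. That of PLK2 (chr5:57758101-57758120) lies upstream of the gene, with its centre 2145 nt from the start, and that of ZMAT3 (chr3:178787976-178787995) lies in intron 1.

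Single half-sites were counted in proximal promoters as well. In the RefSeq promoter table (GRCh38.p14, 250 nt before to 50 nt after each start), 24 of the 32 members were present. A perfect half-site of the p53 consensus was found in 3 of them, PLK2, AEN and FDXR, which is 12.5%, against 6.54% of 27305 promoters of the same length and 5.23% of the 8833 of tested genes. With 1 mismatch allowed the shares were 54.2%, 45.0% and 41.4%.

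The siRNA reached its target in both SAF-A libraries: HNRNPU stood at 91.2 FPKM (fragments scaled by transcript length and by the mapped reads of the library) in control and 10.4 in SAF-A cells at 24 h, and at 84.6 and 9.24 at 48 h, which leaves 11.4% and 10.9% of control. The depth implied by the files was 28083822 to 30701282 mapped reads in 3 libraries and 1216740 in SAF-A 48 h. Every 48 h result on SAF-A siRNA therefore rests on a library with far fewer reads, and the part of this in the results below was not tested. Read counts given below are estimates from FPKM, length and depth, and the bounds in square brackets are the deposited 95% bounds summed over a gene's transcripts, which cover counting error within a library only. Of the defining markers of differentiated pigment epithelium, RPE65 and TTR were listed at 0 in all 4 libraries and RLBP1 and TYR were at most 0.023 FPKM, while MITF was 8.90 in control and 5.56 in SAF-A cells at 24 h, with bounds apart, and 9.01 and 4.23 at 48 h, with overlapping bounds. The mesenchymal filament gene VIM was 2145 and 1845 FPKM at 24 h, lower in SAF-A cells with bounds apart, and 1586 and 3312 at 48 h, called higher. The markers of other cell types (PTPRC, CD3E, PECAM1, VWF, CDH1, EPCAM, GFAP and CRX) were at 0.347 FPKM or less. Of the other markers of the cultured line, TJP1 was 6.19 and 10.2 FPKM in control and SAF-A 48 h and CDH2 51.1 and 81.5, both higher in SAF-A cells with bounds apart, and KRT7 was 8.92 and 3.84, lower with bounds apart. KRT8 and KRT18 are left out because their deposited bounds do not contain their levels. The part of these marker differences in the results below was not tested.

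Changes are differences of log2(FPKM + 1), SAF-A minus control, among the 11065 genes whose spliced length reached 300 nt and whose mean over the libraries reached 1 FPKM, and a gene is called where it differs at least 2-fold on that scale. Of the members 29 passed these minimums and SPATA18, CMBL and GDF15 did not. At 24 h the p53 targets were mostly near control: 1 of the 29, TP53INP1, was at least 2-fold higher and 0 were lower by that much, where the background over all tested genes was 0.425% higher and 0.262% lower. Their median log2 difference was 0.03, and that of all tested genes -0.07. At 48 h 10 members were at least 2-fold higher, against a background of 14.3%, and 2 were at least 2-fold lower, against 18.5%. The median log2 difference at 48 h was 0.76 for the members and -0.11 for all tested genes. In bulk RNA, fewer cells with a transcript and less of it per cell cannot be told apart.

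The 10 members at least 2-fold higher at 48 h were PLK3, the receptors FAS and TNFRSF10A, the mitochondrial death genes BAX and BBC3, the repair genes XPC and RRM2B, and the metabolic genes SESN1, TIGAR and FDXR. The 2 at least 2-fold lower were the kinase gene PLK2 and the RNA-binding protein gene ZMAT3. Several of these calls lie close to the threshold. XPC falls to a log2 difference of 0.84 and TIGAR to 0.88 after rescaling to TPM over genes of at least 300 nt. TIGAR is 0.99 after centring on genes of at least 5 FPKM. After centring within deciles of spliced length, PLK2 is at -0.85 and ZMAT3 at -0.87, so neither is called. For all 12 calls the deposited bounds of the SAF-A and control libraries did not overlap, a criterion that with 2-fold together was met by 12.8% of tested genes upward and 16.5% downward. By the weaker criterion of bounds that do not overlap, whatever the size of the difference, 18 members were higher and 4 lower at 48 h (background 22.7% and 27.1%), and 6 were higher and 6 lower at 24 h (background 8.65% and 18.4%). Differences above 0 were found in 22 of 29 members at 48 h (background 45.9%) and in 16 of 29 at 24 h (background 35.7%). The siRNA comparisons at 24 h and 48 h use different libraries, so they share no control.

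**Figure D1:**
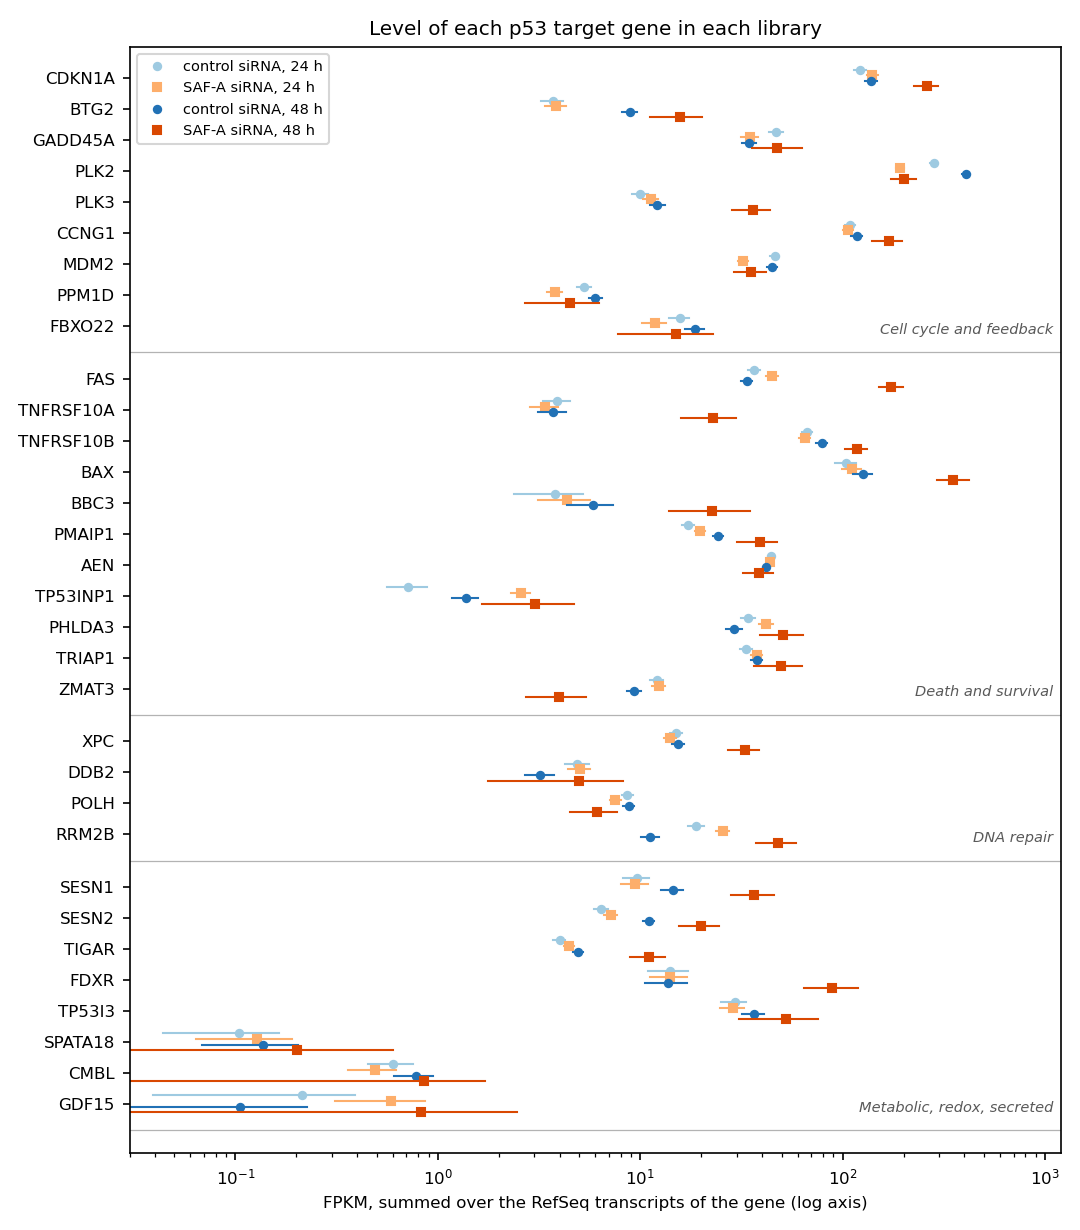
Level of each of the 32 p53 targets in the 4 libraries, in FPKM on a log axis, grouped by role. Points are library values and bars the summed deposited 95% bounds, with light symbols for 24 h and dark ones for 48 h. The SAF-A 48 h library stands to the right for FAS, TNFRSF10A, BAX, BBC3 and FDXR and to the left for ZMAT3, and SPATA18, CMBL and GDF15 lie below 1 FPKM in every library.

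Arrest and feedback genes were found on both sides of control at 48 h. CDKN1A, BTG2, PLK3 and CCNG1 were higher in SAF-A cells at 48 h with bounds apart, whereas MDM2 and PLK2 were lower with bounds apart. Of the 9 genes of this class, 1 (PLK3) was called higher and 1 (PLK2) called lower at 48 h, which is 11.1% each way and no more than the 14.3% and 18.5% of all tested genes, and the median log2 difference was 0.44. At 24 h the class had the lowest median of the 4, -0.38. Bounds were apart in 1 gene that was higher and 5 that were lower (background 8.65% and 18.4%).

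CDKN1A encodes p21, the inhibitor of cyclin-dependent kinases through which p53 arrests cells before S phase, at chr6:36644237-36655116. Its level was 123 FPKM [114 to 131] in control and 141 [132 to 149] in SAF-A cells at 24 h, and 138 [129 to 147] and 261 [226 to 298] at 48 h. The SAF-A 48 h library is the high one, at 1.89 times its control, and the other 3 lie close together. The log2 difference of 0.91 at 48 h misses the 2-fold threshold, which it reaches, at 1.00, after centring within deciles of spliced length. The 0.20 at 24 h shrinks to 0.01 when libraries are rescaled to TPM over all genes.

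PLK3, a polo-like kinase of the stress response, had the largest difference upward in this class. Its level was 10.0 FPKM in control and 11.3 in SAF-A cells at 24 h, and 12.2 [11.1 to 13.2] and 36.2 [28.6 to 43.9] at 48 h, a log2 difference of 1.5 from about 95 reads in SAF-A 48 h. The exons of PLK3 overlap those of DYNLT4 on the opposite strand by 82 nt, and DYNLT4 was at most 1.32 FPKM. Reads from such a pair cannot be told apart without strand. BTG2, an antiproliferative cofactor of mRNA deadenylation, was 3.71 and 3.85 FPKM in control and SAF-A cells at 24 h, and 8.89 [8.18 to 9.60] and 15.7 [11.2 to 20.3] at 48 h. BTG2 thus stood higher at 48 h than at 24 h under both siRNAs. CCNG1, which encodes cyclin G1, was 109 and 107 FPKM at 24 h, and 117 [110 to 124] and 169 [140 to 197] at 48 h.

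PLK2, a polo-like kinase of centriole duplication at chr5:57749810-57755966, was the most abundant member in both control libraries and in SAF-A 24 h. It was 283 FPKM [271 to 295] in control and 192 [183 to 200] in SAF-A cells at 24 h, and 408 [390 to 425] and 202 [173 to 231] at 48 h. The bounds of the SAF-A libraries overlap between the times, and the control level was higher at 48 h. The log2 differences were -0.56 at 24 h and -1.01 at 48 h, both with bounds apart.

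The feedback genes were lower at 24 h. MDM2, the ligase that degrades p53, was 46.3 FPKM [43.8 to 48.7] in control and 32.1 [30.3 to 33.9] in SAF-A cells at 24 h, and 44.9 [42.5 to 47.3] and 35.2 [29.2 to 41.9] at 48 h. PPM1D, the phosphatase WIP1 that switches off damage signalling, was 5.28 [4.87 to 5.69] and 3.79 [3.46 to 4.12] at 24 h, and 6.01 and 4.49 at 48 h, where about 25 reads leave the bounds overlapping. The log2 difference of MDM2 was -0.51 at 24 h and -0.34 at 48 h, that of PPM1D -0.39 and -0.35.

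FBXO22, the substrate receptor of a ubiquitin ligase, and GADD45A, a stress sensor that interacts with PCNA, were lower at 24 h as well. FBXO22 was 15.7 FPKM in control and 11.8 in SAF-A cells at 24 h, and 18.6 and 15.1 at 48 h, with overlapping bounds at 48 h. Its exons overlap an opposite-strand RNA (NR_003136) by 446 nt, whose level was 31.2 to 42.1 FPKM in 3 libraries and 14.8 in SAF-A 48 h. GADD45A was 46.9 FPKM [43.1 to 50.7] in control and 34.7 [31.4 to 38.2] in SAF-A cells at 24 h, and 34.6 [31.9 to 37.5] and 47.5 [35.7 to 62.7] at 48 h. The order of the siRNAs for GADD45A is opposite at the 2 times, with overlapping bounds at 48 h, so the later difference was not distinguishable at this depth.

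**Figure D2:**
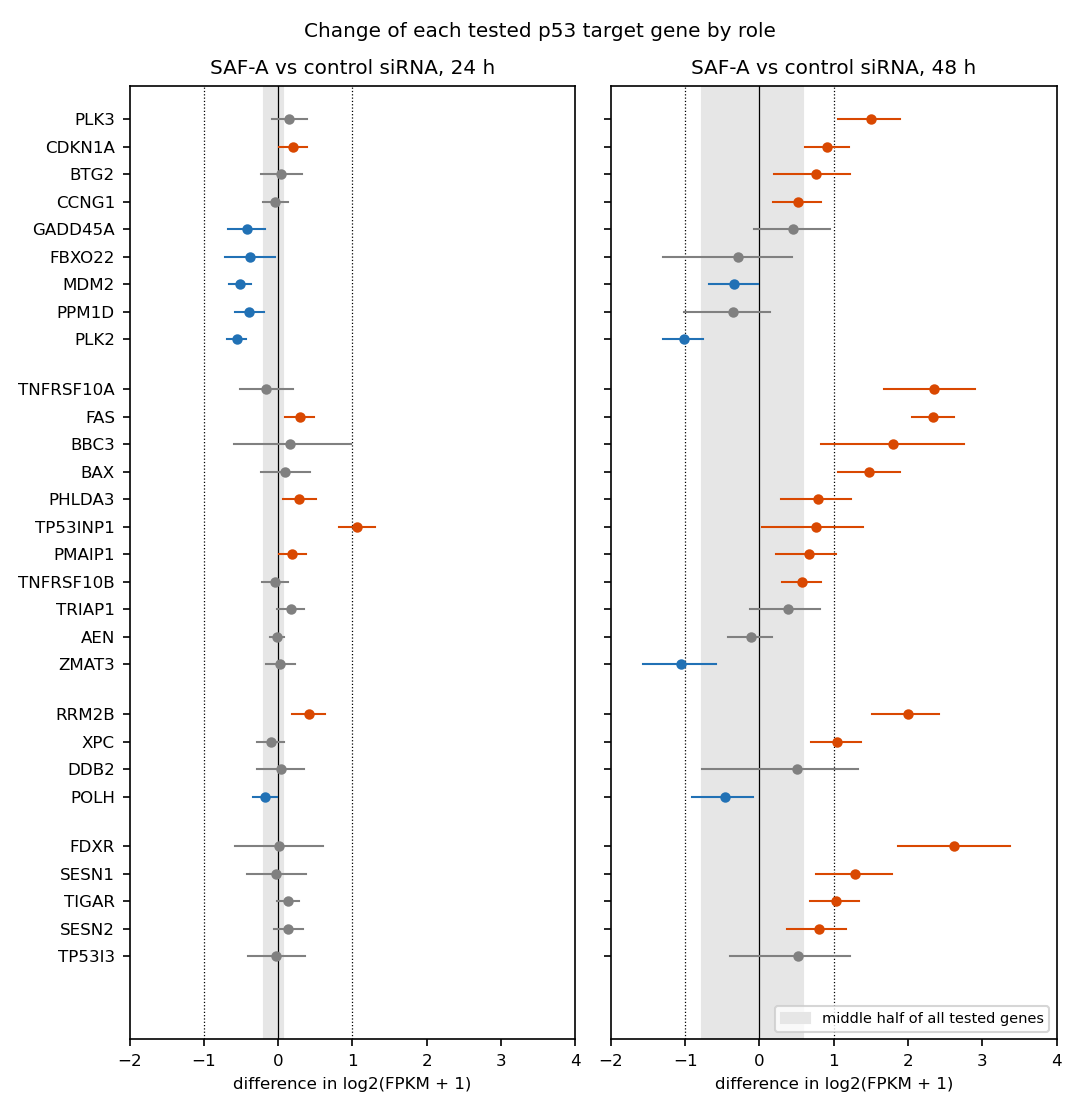
Log2 difference, SAF-A minus control, of the 29 tested p53 targets at 24 h and 48 h, in the same row order in both panels and with bars for the range that the deposited bounds allow. Orange marks genes higher and blue marks genes lower with bounds that do not overlap, dotted lines mark 2-fold, and grey bands hold the middle of all tested genes, from the lower to the upper quartile. TP53INP1 alone passes 2-fold at 24 h, while FDXR at 2.61 and both FAS and TNFRSF10A at 2.34 are the highest at 48 h.

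Among death and survival genes, FAS, TNFRSF10A, BAX and BBC3 were at least 2-fold higher in SAF-A cells at 48 h. Of the 11 genes, these 4 were called higher and 1 (ZMAT3) lower at 48 h, with a median log2 difference of 0.76, and the median at 24 h was 0.16. These calls are 36.4% and 9.09% of the class, against 14.3% and 18.5% of all tested genes. At 48 h, 8 of the 11 were higher with bounds apart (background 22.7%).

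FAS, the receptor of FAS ligand that assembles the death-inducing complex with caspase 8, lies at chr10:90750288-90775542. It was 36.5 FPKM [34.0 to 39.2] in control and 45.0 [41.9 to 48.1] in SAF-A cells at 24 h, and 33.5 [31.6 to 35.7] and 173 [152 to 199] at 48 h. The SAF-A value exceeded its control at both times, by 1.23 times and 5.18 times, and the SAF-A 48 h library stands far above the other 3. TNFRSF10A, the TRAIL receptor DR4, was 3.90 and 3.39 FPKM at 24 h, and 3.70 [3.12 to 4.28] and 22.9 [15.8 to 29.9] at 48 h, from about 43 reads. Its ratio of 6.17 at 48 h exceeds that of its neighbour gene TNFRSF10B, which encodes the TRAIL receptor DR5. TNFRSF10B was 67.0 and 64.9 FPKM at 24 h, and 78.7 [74.1 to 83.3] and 118 [103 to 133] at 48 h, a log2 difference of 0.57. Its exons overlap those of RHOBTB2 on the opposite strand by 63 nt. All 3 receptors were higher at 48 h, and the less abundant of the TRAIL receptors in the control libraries had the larger ratio.

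The BCL2-family genes were highest in the same library. BAX, which forms pores in the outer mitochondrial membrane, was 104 FPKM and 111 at 24 h, and 126 [113 to 139] and 351 [291 to 420] at 48 h, a log2 difference of 1.47. BBC3, the BH3-only protein PUMA, was 3.8 and 4.36 FPKM at 24 h, and 5.82 [4.34 to 7.35] and 22.6 [13.8 to 34.9] at 48 h. PMAIP1, the BH3-only protein NOXA, was 17.2 [16.0 to 18.4] and 19.8 [18.6 to 21] at 24 h, and 24.3 [22.9 to 25.7] and 38.9 [30.2 to 47.6] at 48 h. PMAIP1 was also higher in SAF-A cells at 24 h with bounds apart, but its log2 difference of 0.19 is 0.01 after rescaling to TPM over all genes.

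TP53INP1, a stress protein of autophagy and cell death, was the member with the largest difference at 24 h. It was 0.712 FPKM [0.559 to 0.881] in control and 2.58 [2.31 to 2.87] in SAF-A cells at 24 h, and 1.38 [1.18 to 1.59] and 3.04 [1.65 to 4.73] at 48 h. Those values are 3.63 and 2.21 times control and rest on about 109 and 429 reads at 24 h, but on 20 reads in SAF-A 48 h. The log2 difference, 1.07 at 24 h, is 0.96 after rescaling to TPM over all genes, under the 2-fold threshold.

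Among the remaining death and survival genes, PHLDA3 and ZMAT3 differed with bounds apart at 48 h, and TRIAP1 and AEN did not. PHLDA3, a competitor of AKT at the membrane, was 34.2 FPKM [31.5 to 37.0] and 42 [38.7 to 45.2] at 24 h, and 29.1 [26.4 to 31.8] and 50.7 [39.1 to 63.5] at 48 h, higher in SAF-A cells at both times. TRIAP1, an inhibitor of apoptosis, was 33.4 and 37.6 at 24 h, and 37.7 and 49.6 at 48 h, with bounds that overlap at both times. AEN, an apoptosis-enhancing nuclease, was 44.4 and 43.8 FPKM at 24 h, and 41.8 and 38.7 at 48 h, with overlapping bounds. ZMAT3, a zinc finger protein that binds RNA, at chr3:178735011-178789656, was 12.1 FPKM and 12.4 at 24 h, and 9.33 [8.59 to 10.1] and 3.97 [2.73 to 5.39] at 48 h. Only the SAF-A 48 h library, with about 43 reads, is low for ZMAT3, and its log2 difference there was -1.06.

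The repair genes differed in direction at 48 h. Of the 4, RRM2B and XPC were at least 2-fold higher, DDB2 did not differ beyond its bounds, and POLH was lower with bounds apart. Over all tested genes, 14.3% were at least 2-fold higher and 27.1% were lower with bounds apart, and 4 genes are few for such a comparison. The class median log2 difference was 0.78 at 48 h and -0.03 at 24 h. RRM2B, the ribonucleotide reductase subunit that supplies nucleotides for repair, was 18.9 FPKM [17.2 to 20.7] and 25.5 [23.7 to 27.4] at 24 h, and 11.2 [10.1 to 12.3] and 47.9 [37.2 to 58.6] at 48 h. It was higher in SAF-A cells at both times, and its control level was lower at 48 h than at 24 h. XPC, the damage sensor of nucleotide excision repair, was 15.1 and 14 FPKM at 24 h, and 15.4 [14.4 to 16.4] and 33.0 [27.2 to 38.7] at 48 h. Its exons also carry 2 RefSeq accessions that matched no symbol, at 0.00342 FPKM or less. DDB2, which recognises ultraviolet damage, was 4.89 and 5.03 at 24 h, and 3.21 and 5.0 at 48 h, the last from 10 reads. POLH, the translesion polymerase eta, was 8.64 [8.11 to 9.17] and 7.53 [7.06 to 8.0] at 24 h, and 8.79 [8.25 to 9.32] and 6.11 [4.51 to 7.71] at 48 h. POLH was thus lower in SAF-A cells at both times, with log2 differences of -0.18 and -0.46. Its exons overlap those of GTPBP2 on the opposite strand by 43 nt.

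The metabolic and redox genes were near control at 24 h and higher at 48 h. Of 8 genes 5 were tested: 3 were at least 2-fold higher and 0 lower at 48 h, with a median log2 difference of 1.03, against 0.01 at 24 h. The 3 calls are 60.0% of only 5 genes, where 14.3% of all tested genes were called higher and 18.5% lower. FDXR, the mitochondrial ferredoxin reductase at chr17:72858619-72869156, had the largest difference of all members. It was 14 FPKM [10.9 to 17.3] and 14.1 [11.2 to 17.1] at 24 h, and 13.7 [10.6 to 17.0] and 89.0 [64.1 to 119] at 48 h, which is 6.49 times control. The 3 other libraries of FDXR agree within their bounds, and the SAF-A 48 h library stands alone.

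SESN1 and SESN2 encode sestrins, which lower mTORC1 activity when amino acids are short. SESN1 was 9.64 and 9.47 FPKM at 24 h, and 14.5 [12.7 to 16.2] and 36.6 [28.1 to 46.0] at 48 h. SESN2 was 6.44 and 7.17 at 24 h, and 11.1 [10.4 to 11.7] and 20.0 [15.5 to 24.5] at 48 h, a log2 difference of 0.80. Both sestrin genes were higher at 48 h than at 24 h in control cells as well.

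TIGAR, a phosphatase that diverts glucose to the pentose phosphate pathway, was 4.0 and 4.46 FPKM at 24 h, and 4.93 [4.63 to 5.22] and 11.1 [8.94 to 13.2] at 48 h. TP53I3, a quinone oxidoreductase, was 29.3 and 28.7 at 24 h, and 36.3 [31.7 to 41.0] and 52.6 [30.8 to 75.4] at 48 h, with overlapping bounds. The last 3 genes were below 1 FPKM in every library. SPATA18, of mitochondrial quality control, was 0.104 to 0.201 FPKM, the latter from 1 read. CMBL, a hydrolase, was 0.492 to 0.855 FPKM, with 4 reads in SAF-A 48 h. GDF15, a secreted stress cytokine, was 0.215 and 0.589 FPKM at 24 h from 6 and 18 reads, 0.105 in control 48 h from 3 reads, and 0.825 in SAF-A 48 h from 1 read, where 3 reads would be 2.47 FPKM. No fold is given for these genes at 48 h, and a difference was not detectable at this depth.

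Differences with time in control cells were mostly small. Between 24 h and 48 h under control siRNA, 1 of 29 was at least 2-fold higher (BTG2, log2 difference 1.07) and 0 were lower, against a background of 0.578% and 0.452%, and the median was 0.17 (all tested genes 0.03). With bounds apart, 9 members were higher at 48 h, among them BTG2, PLK2, SESN1 and SESN2, and 4 were lower, GADD45A, ZMAT3, DDB2 and RRM2B (background 19.1% and 13.2%). Under SAF-A siRNA, 11 were at least 2-fold higher and 1 lower (background 15.5% and 16.0%), with a median of 0.85 (all tested genes -0.01). The single member lower with time under SAF-A siRNA was ZMAT3, at a log2 difference of -1.43. This comparison shares the SAF-A 48 h library with the siRNA comparison at 48 h, so they are not independent. The highest log2 differences with time under SAF-A siRNA were 2.57 for FDXR, 2.44 for TNFRSF10A and 2.14 for BBC3, beside -0.03, -0.06 and 0.50 under control siRNA.

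The p53 pathway around the members was described with 4 lists. Among p53 regulators 24 of 25 were tested, and at 48 h 3 were called higher and 4 lower, with a median log2 difference of -0.22. These shares, 12.5% and 16.7%, do not exceed the 14.3% and 18.5% of all tested genes. By the naming rule these were RPL11, a ribosomal protein that binds MDM2 (868 and 1869 FPKM in control and SAF-A 48 h), the acetyltransferase KAT5 (14.2 and 30.2) and the ARF and p16 gene CDKN2A (56.5 and 115), all higher. The checkpoint kinase CHEK2 (11.6 and 3.67, about 7 reads) was lower. RPL5, another ribosomal protein gene of this list, went the other way from RPL11. It was 482 and 319 FPKM in control and SAF-A 48 h, lower with bounds apart but not called.

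A list of 40 further p53 targets also had its median above that of all tested genes at 48 h. Of these 35 were tested, 10 were called higher (28.6%, against 14.3% of all tested genes) and 4 lower (11.4%, against 18.5%), and the median log2 difference was 0.62 (24 h, -0.01). The highest were ACTA2, a smooth muscle actin, at 11.4 and 97.6 FPKM in control and SAF-A 48 h, the tetraspanin CD82 at 8.47 and 59.1, and the lysosomal fucosidase FUCA1 at 10.7 and 66.6. STEAP3, a ferrireductase, at 7.67 and 2.02 (about 10 reads), and KITLG, the ligand of KIT, at 20.6 and 9.26, were lower.

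The genes repressed through p21 and DREAM, mostly mitotic and replication factors, were lower at 48 h. All 32 were tested, 0 were called higher and 21 were called lower, and log2 differences ranged from -3.60 to 0.07 with a median of -1.18. The calls downward are 65.6% of the list, where 18.5% of all tested genes were called lower and 14.3% higher. At 24 h the median was -0.11 and 11 were lower with bounds apart (background 18.4%). Named by the rule were the kinase NEK2, the phosphatase CDC25A and the securin PTTG1. In control and SAF-A 48 h, NEK2 was 22.7 and 0.953 FPKM, CDC25A 34.5 and 3.75, and PTTG1 100.2 and 16.0. Their SAF-A 48 h values rest on about 2, 16 and 12 reads, in that order. The 15 genes of the ATF4 stress response, a list that shares SESN2, GDF15 and PMAIP1 with the members, had 14 tested. At 48 h 1 was at least 2-fold higher and 1 lower, with a median of -0.41. That is 7.14% each way, below the 14.3% and 18.5% of all tested genes. The gene that was higher averaged below the 5 FPKM of the naming rule. The gene that was lower, SLC7A11, the cystine transporter, was 38.5 FPKM in control and 13.2 in SAF-A cells at 48 h.

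**Figure D3:**
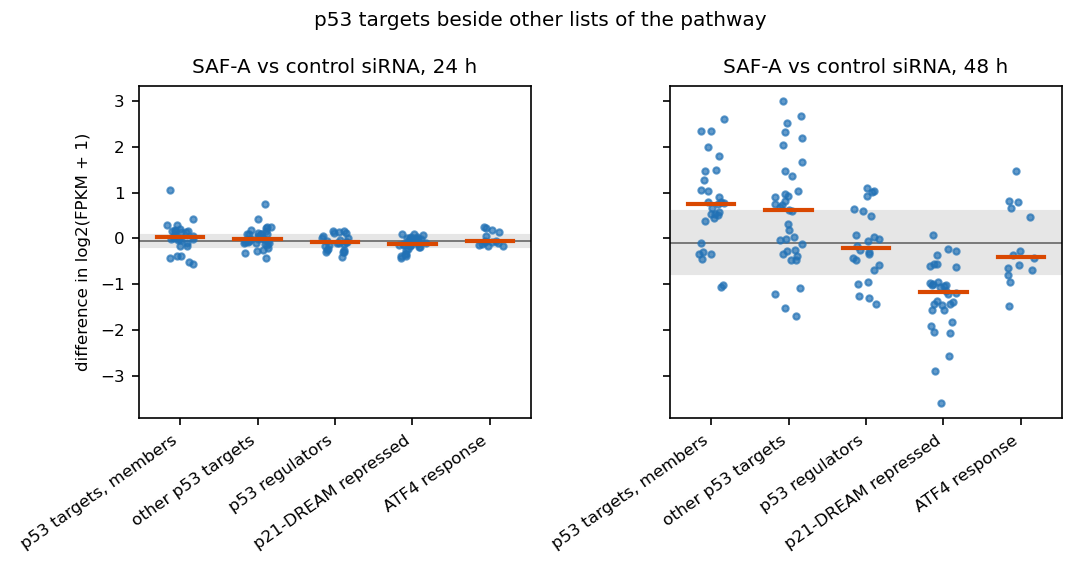
Log2 difference, SAF-A minus control, for each tested gene of the p53 targets and of 4 pathway lists at 24 h and 48 h. Points are genes, orange bars are list medians, the grey line and band are the median and the quartile range of all tested genes. At 48 h the medians are 0.76 for the members, 0.62 for other p53 targets and -1.18 for p21 and DREAM repressed genes, against -0.11 for all tested genes.

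The members were also set side by side by the closeness of their best match. The 6 tested members with at most 1 mismatch had a median log2 difference of 0.48 at 48 h, with 1 at least 2-fold higher. The 23 with 2 or more mismatches had a median of 0.78, with 9 at least 2-fold higher. Over all tested genes 14.3% were at least 2-fold higher, and those genes were not split by mismatch. A group of 6 genes is small for such a comparison, so no link between match and change is drawn. The 2 members with a perfect site, PLK2 and ZMAT3 (printed above), are the 2 that were at least 2-fold lower at 48 h, an overlap seen after the values were known. Neither call holds after centring within deciles of spliced length.

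Transcript composition was examined in the 14 members with at least 2 RefSeq transcripts and at least 5 FPKM in every library. The share of the summed FPKM that moved between transcripts was 30% or more in 8 of the 14 at 48 h, against a background of 38.3% of 3264 genes, and in 0 of the 14 at 24 h, against 8.46%. The members' share at 48 h ranged from 0.758% for GADD45A to 80.3% for CDKN1A. Transcripts that share most of their sequence are told apart by few reads, fewest in SAF-A 48 h, so these shares are uncertain.

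The 4 transcripts of CDKN1A have 2039 nt in common and 30 to 141 nt each of their own. NM_001220777, the transcript that starts at the p53 match printed above, was 92.9 FPKM in control and 105 in SAF-A cells at 24 h, 103 in control 48 h, and 0.00159 [0 to 0.867] in SAF-A 48 h. NM_000389 was 16.1, 26.3 and 19.8 FPKM in the same 3 libraries and 215 [192 to 238] in SAF-A 48 h. The CDKN1A levels given earlier are the sums over its transcripts. PLK2 showed a similar exchange, in which NM_001252226, which lacks 42 nt of NM_006622, was at most 0.00474 FPKM in 3 libraries and 122 [106 to 138] in SAF-A 48 h.

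BAX and TNFRSF10B also differed mainly in SAF-A 48 h. The BAX transcript NM_138761 was 32.9 and 44.3 FPKM in control and SAF-A 24 h, and 68.7 and 331 in control and SAF-A 48 h, while NM_138763 was 45.5, 40.0, 31.0 and 4e-06. The TNFRSF10B transcript NM_147187 was 36.0, 27.8, 35.9 and 109 FPKM in that order of libraries, and NM_003842 was 31.0, 32.8, 41.5 and 8.39. FAS moved 3.7% of its share at 48 h, while its level differed 5.18 times.

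Transcript shares of RRM2B differed with time under control siRNA as well. NM_001172477 was 70.8% of its summed FPKM in control 24 h and 32.7% in control 48 h, and 67.7% and 17.7% in SAF-A 24 h and 48 h. It was the single member of the 14 examined whose share moved by 30% or more with time in control cells, where 8.58% of 3264 genes did so.

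**Figure D4:**
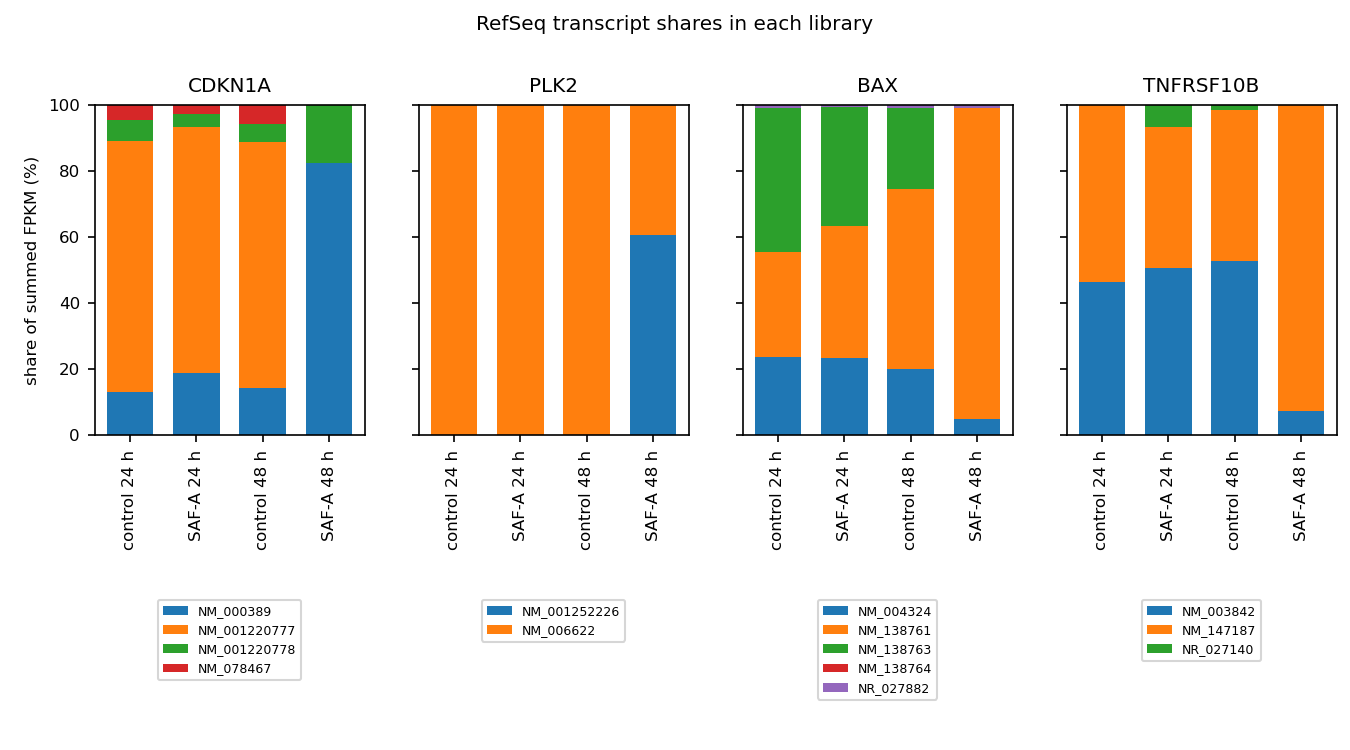
Share of each RefSeq transcript in the summed FPKM of CDKN1A, PLK2, BAX and TNFRSF10B, in percent, for each of the 4 libraries. The SAF-A 48 h bar differs most in each panel, with NM_000389 at 82.5% of CDKN1A and NM_138761 at 94.3% of BAX.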

How the data were processed

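The authors deposited FPKM values with 95% bounds for each RefSeq transcript of each library, in Cufflinks format per the file headers. TopHat2 2.0.10, Bowtie2 2.1.0, Cufflinks 2.2.1 and build hg19 are named in the submitters' processing notes. Per the labels' protocols, ribosomal RNA was removed and 50-base reads were taken from 1 end. The use of strand and the handling of reads that map to several places are not given in the sources used here. In the transcript files the authors deposited a coverage signal, which served only to derive the depth, and transcript attributes.

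The 47338 table rows were joined to symbols through RefSeq (GRCh38.p14, names only; 97.28% of 44444 accessions matched), and FPKM and bounds were summed per symbol with pandas 2.3.3 and numpy 2.4.6. Summing makes the bounds too wide for the total. In 14 tested genes (0.127%), but in 0 members, a level lies outside its own bounds. Genes entered a comparison where the longest transcript reached 300 nt and the mean of the 4 libraries 1 FPKM, a pseudocount of 1 was added before log2, and at least 2-fold was called, so folds of low genes are understated. Estimated reads assume fragments of 200 ± 80 nt. The reads carry no molecular identifiers, so bounds cover counting error only.

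Named genes are HNRNPU, the 32 members and, of each pathway list, the 3 highest and 3 lowest at 48 h that averaged 5 FPKM or more, differed at least 2-fold and had bounds apart. RPL5 is given in addition, beside RPL11. The values of 1 further gene that the rule names and of 1 cell type marker are not reported here. The members and lists were chosen with earlier results of these data known. The scan for full p53 sites, the count of nucleotides unique to a transcript and 2 of the 12 alternatives were chosen after seeing the data. The scripts were tested on simulated data.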

Additional observations from a re-analysis of the deposited data

How the results depend on the processing

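The members' median log2 difference at 48 h lay between 0.56 and 0.80 over the alternatives tried and kept its sign, and at 2-fold 8 to 12 members were called higher. The share of all tested genes called higher at 2-fold and 48 h ran from 8.16% to 17.0% over the settings. At 24 h the median ran from -0.14 to 0.10, below 0 under both TPM scalings. Rescaling to TPM over all genes moved the median of all tested genes at 24 h to -0.23, and TPM over genes of at least 300 nt moved it at 48 h to -0.38, with 10.3% called higher and 29.4% lower. With a 1.5-fold threshold, 16 members were higher at 48 h (background 25.1%) and 17 with time under SAF-A siRNA (background 27.4%). With time under control siRNA, 2 were higher and 1 lower (background 2.89% and 2.34%). At 1.5-fold and 48 h, 3 of 9 arrest genes, 7 of 11 death genes, 19 of 35 other targets, 6 of 24 regulators and 4 of 14 ATF4 genes were higher (background 25.1%). Lower at 48 h were 7 regulators and 6 ATF4 genes (background 31.4%). At 24 h 1 other target was higher (background 1.51%).

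With TPM over all genes or a mean of at least 5 FPKM, 0 members and 0 death genes were called at 24 h, because TP53INP1 left the calls. The background at 24 h was 0.296% higher and 0.368% lower with TPM over all genes. With the minimum of 5 FPKM it was 0.389% and 0.0907%. TPM over all genes gave 2 ATF4 genes lower at 48 h (background 19.7%) and a 24 h median of -0.29 for the p21 and DREAM list. TPM over genes of at least 300 nt gave 1 repair gene (RRM2B), 0 regulators and 2 ATF4 genes higher at 48 h (background 10.3%). The same scaling gave 4 ATF4 genes lower at 48 h (background 29.4%). The minimum of 5 FPKM gave 0 ATF4 genes higher and 1 regulator lower (background at 48 h 17.0% and 16.7%). Centring on genes of at least 5 FPKM gave 1 regulator higher and 2 ATF4 genes lower (background at 48 h 13.3% and 19.7%). A pseudocount of 0.1 gave 2 ATF4 genes lower (background at 48 h 23.8%).

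Of the alternatives added after seeing the data, centring within deciles of spliced length gave 0 members lower at 48 h (PLK2 -0.85, ZMAT3 -0.87), so 0 arrest and 0 death genes lower, 2 arrest genes higher and 2 ATF4 genes lower. The background at 48 h in this setting was 16.1% higher and 16.0% lower. Before this centring, the median of all genes at 48 h ran from 0.15 in the shortest decile to -0.24 in the ninth. Without members whose exons overlap another entry of the files, 0 arrest genes and 1 repair gene were higher at 48 h (background 14.3%). The repair median at 24 h was then 0.22. XPC was left out there only for same-strand RefSeq accessions that matched no symbol, at 0.00342 FPKM or less, so its loss shows no overlap with a separate gene. With 1 mismatch, 54.2% of member promoters held a half-site. The cause of these shifts was not tested. No paired analysis was possible because each group has 1 library and no replicate numbers, and no library could be left out. At the depth of SAF-A 48 h, members with few reads, such as DDB2 with 10, show only large differences.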

Other observations

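ACTA2, the highest of the other p53 targets at 48 h, lies on the opposite strand from FAS (chr10:90750288-90775542), and the 2 loci overlap at the start of FAS. The exons of FAS overlap those of no other gene in the files. ACTA2 was 17.7 FPKM in control and 21 in SAF-A cells at 24 h, and 11.4 and 97.6 at 48 h. CD82, a tetraspanin of cell adhesion, was the further target with the largest difference at 24 h, at 11.9 and 20.4 FPKM, a log2 difference of 0.74 with bounds apart, and 2.67 at 48 h.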
